A study of Mus musculus with 25 samples.

Results

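The GIMAP family genes code for GTPases of immunity-associated proteins. The 8 mouse members Gimap1, Gimap3, Gimap4, Gimap5, Gimap6, Gimap7, Gimap8 and Gimap9 were taken by gene symbol from the array's probe table. Each was represented by 1 transcript cluster, the array's unit for a gene's transcripts, so that 8 of 22206 tested clusters, or 8 of 19505 genes with a symbol, are described. Levels are log2 values, on which a difference of 1 is a doubling. Each member read above its array's median negative control on all 25 arrays.

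GIMAP proteins bind GTP and are related in fold to septins and dynamins. They are made mainly in lymphocytes, sit on membranes of the endoplasmic reticulum, mitochondria, lysosomes and Golgi, and several are needed for T cells to survive once they have matured in the thymus. Loss of Gimap5 in rats and mice removes most peripheral T cells, and several members have been linked to BCL2 family proteins or to autophagy. Their genes lie side by side in 1 cluster in mammals.

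Invariant natural killer T (iNKT) cells, a T cell type with a fixed receptor chain, respond to lipids shown by CD1d. They were sorted from thymus of C57BL/6 mice by their TCR beta, binding of a loaded CD1d tetramer and lack of CD24, after a step with CD8 microbeads. Stage 3 (S3) cells carried CD44 and NK1.1, and stage 1 and stage 2 cells, which lack NK1.1 and differ in CD44, were labelled together as S1_S2. The groups held 1 dKOMst, 5 Mst1KO and 7 WT arrays of S3 cells, and 2 dKOMst, 4 Mst1KO and 6 WT arrays of S1_S2 cells. Mst1KO cells lack the Hippo pathway kinase Mst1, dKOMst cells lack Mst1 and Mst2, and WT cells are wild type. The labels give neither alleles, a Cre driver nor the ages of the mice. Whether a group's arrays stand for separate mice is not stated in the labels, so p-values measure only array-to-array spread, part of which may be technical. The title numbers fell into a first set of 16 arrays, which held all Mst1KO arrays, and a second set of 9, which held all dKOMst arrays. WT arrays lay in both, and every fitted difference takes account of the set.

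Stk4, which codes for Mst1, averaged 9.31 ± 0.07 in Mst1KO_S1_S2 and 10.46 ± 0.19 in WT_S1_S2 (SD, n = 4 and 6), a log2 difference of -0.92 ± 0.16 (SE, limma, adjusted p = 0.0059). At S3 it averaged 9.74 ± 0.28 in Mst1KO and 10.28 ± 0.42 in WT (SD, n = 5 and 7), a difference of -0.35 that was not called (limma, adjusted p = 0.15). Where its probes lie relative to the deleted part is not known here. The sort markers Klrb1c (NK1.1) and Cd44 differed between stages as the gates fix, and Cd24a read below the negative controls on all 25 arrays. All 10 measured of 11 listed iNKT and T cell markers read above the controls, with array means of 11.97 to 12.10 on S3 arrays of Mst1KO and WT and of 11.31 to 11.53 on their S1_S2 arrays. Endothelial cells, which also make GIMAP proteins, were represented by 8 measured markers, 5 of them at control level, with array means of 5.99 to 6.38 in WT_S3 and 6.24 to 6.49 in WT_S1_S2. B cell, myeloid and thymic epithelial markers had array means of at most 6.96 in any group. In Mst1KO_S3 and WT_S3, 3 and 5 of 6 B cell, 3 and 6 of 9 myeloid and 3 and 4 of 6 epithelial markers averaged above the controls. The 2 measured of 6 listed erythroid markers averaged above the controls in every group. Their array means were 7.33 to 7.65 in Mst1KO_S3, 7.37 to 7.80 in Mst1KO_S1_S2, 7.43 to 8.03 in WT_S3 and 7.32 to 7.83 in WT_S1_S2.

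In RefSeq's annotation of GRCm38.p6 the 8 genes are neighbours on chromosome 6, in the order Gimap8, Gimap9, Gimap4, Gimap6, Gimap7, Gimap1, Gimap5 and Gimap3, with 0 other protein-coding genes between the first and the last. The promoters of the members with the largest and the smallest stage differences are shown, because all members moved together while the measured sizes differed. Gimap3 (chr6:48770802-48771101, minus strand) and Gimap9 (chr6:48675885-48676184, plus strand) had the largest differences in WT, and Gimap1 (chr6:48738797-48739096, plus strand) and Gimap4 (chr6:48684328-48684627, plus strand) the smallest. Each RefSeq sequence runs 5′ to 3′ from 250 bases before to 50 bases after the annotated start, and capitals mark matches to the motifs searched.
Gimap3: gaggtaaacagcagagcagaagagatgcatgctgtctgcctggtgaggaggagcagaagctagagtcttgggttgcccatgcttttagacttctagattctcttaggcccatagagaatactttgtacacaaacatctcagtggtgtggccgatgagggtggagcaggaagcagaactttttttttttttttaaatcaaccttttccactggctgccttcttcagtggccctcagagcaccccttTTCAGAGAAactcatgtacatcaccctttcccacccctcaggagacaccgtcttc
Gimap9: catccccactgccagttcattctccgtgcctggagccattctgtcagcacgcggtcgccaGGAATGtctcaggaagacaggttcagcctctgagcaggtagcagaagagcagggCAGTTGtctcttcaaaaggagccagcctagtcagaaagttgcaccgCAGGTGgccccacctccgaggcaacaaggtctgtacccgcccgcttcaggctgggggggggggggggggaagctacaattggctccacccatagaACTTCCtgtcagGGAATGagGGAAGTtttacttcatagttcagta
Gimap1: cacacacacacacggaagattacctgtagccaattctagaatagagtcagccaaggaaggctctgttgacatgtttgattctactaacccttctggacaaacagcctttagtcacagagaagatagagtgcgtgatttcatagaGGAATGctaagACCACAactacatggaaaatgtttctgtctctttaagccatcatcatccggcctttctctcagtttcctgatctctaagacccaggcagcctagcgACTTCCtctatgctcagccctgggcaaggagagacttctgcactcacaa
Gimap4: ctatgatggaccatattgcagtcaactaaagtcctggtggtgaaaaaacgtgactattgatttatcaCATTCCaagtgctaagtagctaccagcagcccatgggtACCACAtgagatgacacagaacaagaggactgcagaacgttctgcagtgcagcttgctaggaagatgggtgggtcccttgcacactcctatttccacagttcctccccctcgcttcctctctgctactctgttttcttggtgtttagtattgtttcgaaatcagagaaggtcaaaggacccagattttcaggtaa

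Motifs were searched on both strands in the 9 RefSeq promoters of the 8 genes and in all 32851 mouse promoters of the same length, and no marked matches overlapped. The STAT motif TTCNNNGAA was in promoters of 4 members, Gimap3, Gimap6, Gimap7 and Gimap8, against 8.3% of all promoters. The ETS motif GGAAGT was in 4 (Gimap1, Gimap5, Gimap6 and Gimap9), against 23.8%. The E protein motif CAGNTG was in 4 (Gimap5, Gimap7, Gimap8 and Gimap9), against 51.4%. The RUNX motif TGTGGT was in 3 (Gimap1, Gimap4 and Gimap7), against 16.8%, and the TEAD motif GGAATG in 3 (Gimap1, Gimap4 and Gimap9), against 14.7%. The TATA box letters TATAAA were in Gimap6 alone, against 13.6%. The T-box motif AGGTGT and the GATA motif AGATAA were in none of the members' promoters, against 13.7% and 11.2%. No motif was shared by all members, and among the 4 sequences shown the STAT match was in Gimap3 and the TEAD matches were in the other 3. These are letter matches and not measured binding.

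All 8 GIMAP genes were higher in S3 than in S1_S2 cells, in both genotypes with replicates at both stages. In Mst1KO the 8 called rises had a median of 1.07 on the log2 scale and ran from 0.77 (Gimap1) to 1.48 (Gimap5), while 5.58% of all clusters were called higher. In WT the 8 called rises had a median of 0.91 and ran from 0.65 (Gimap4) to 1.15 (Gimap3), while 8.18% of all clusters were called higher. The median difference of all clusters was -0.04 in Mst1KO and 0.01 in WT. Averaged over the members, S3 arrays lay between 9.97 and 10.36 in Mst1KO, against 8.99 to 9.34 for S1_S2 arrays, and between 10.07 and 10.31 in WT, against 9.04 to 9.49. In these RNA pools, more cells of a type and more transcript per cell cannot be told apart, and S1_S2 mixes cells with and without CD44 in shares the labels do not give. Every gene's 3 S3 group means lay above its 3 S1_S2 group means, as the plot of array values shows. Single markers of other cells were also called between stages.

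Of 7 measured CD8 and double-positive thymocyte markers, 3 were called higher at S3 in Mst1KO and 1 in WT, and 0 lower. Dntt, the terminal transferase gene of early thymocytes, differed by 1.06 in Mst1KO and 0.91 in WT, and Cd8a by 0.67 and Cd24a by 0.55 in Mst1KO, with Cd24a below the negative controls throughout. The median of the 7 was 0.31 in Mst1KO and -0.02 in WT. Their array means were 7.14 to 7.44 in Mst1KO_S3, against 6.78 to 7.03 in Mst1KO_S1_S2, and 6.54 to 7.06 in WT_S3, against 6.54 to 6.89 in WT_S1_S2.

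In the other lists 1 marker at most was called in each genotype. The myeloid gene Lyz2 differed by 1.02 in Mst1KO and 1.00 in WT and was 1 of 9 measured myeloid and dendritic cell markers called, with list medians of -0.09 and 0.09. Pecam1, an endothelial and leukocyte gene, differed by -1.09 in Mst1KO and -1.33 in WT and was 1 of 8 endothelial markers called, with list medians of -0.18 and 0.02. Cd163l1 differed by -0.93 in Mst1KO and -0.98 in WT and was 1 of 3 gamma-delta T cell markers called, the list running from -0.93 to 0.21 in Mst1KO and from -0.98 to -0.13 in WT. Epcam was 1 of 6 thymic epithelium markers called in Mst1KO, at 0.67, and 0 were called in WT. Of 6 B cell and 2 erythroid markers 0 were called in limma in either genotype, and of these 1 erythroid marker in WT had an unadjusted p under 0.05. Array means of the gamma-delta markers, 3 of 3 measured above the controls, were 8.40 to 8.81 in Mst1KO_S3, against 8.88 to 9.20 in Mst1KO_S1_S2, and 7.78 to 8.63 in WT_S3, against 8.71 to 9.13 in WT_S1_S2. The part of these markers in the GIMAP rise was not tested.

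**Figure D1:**
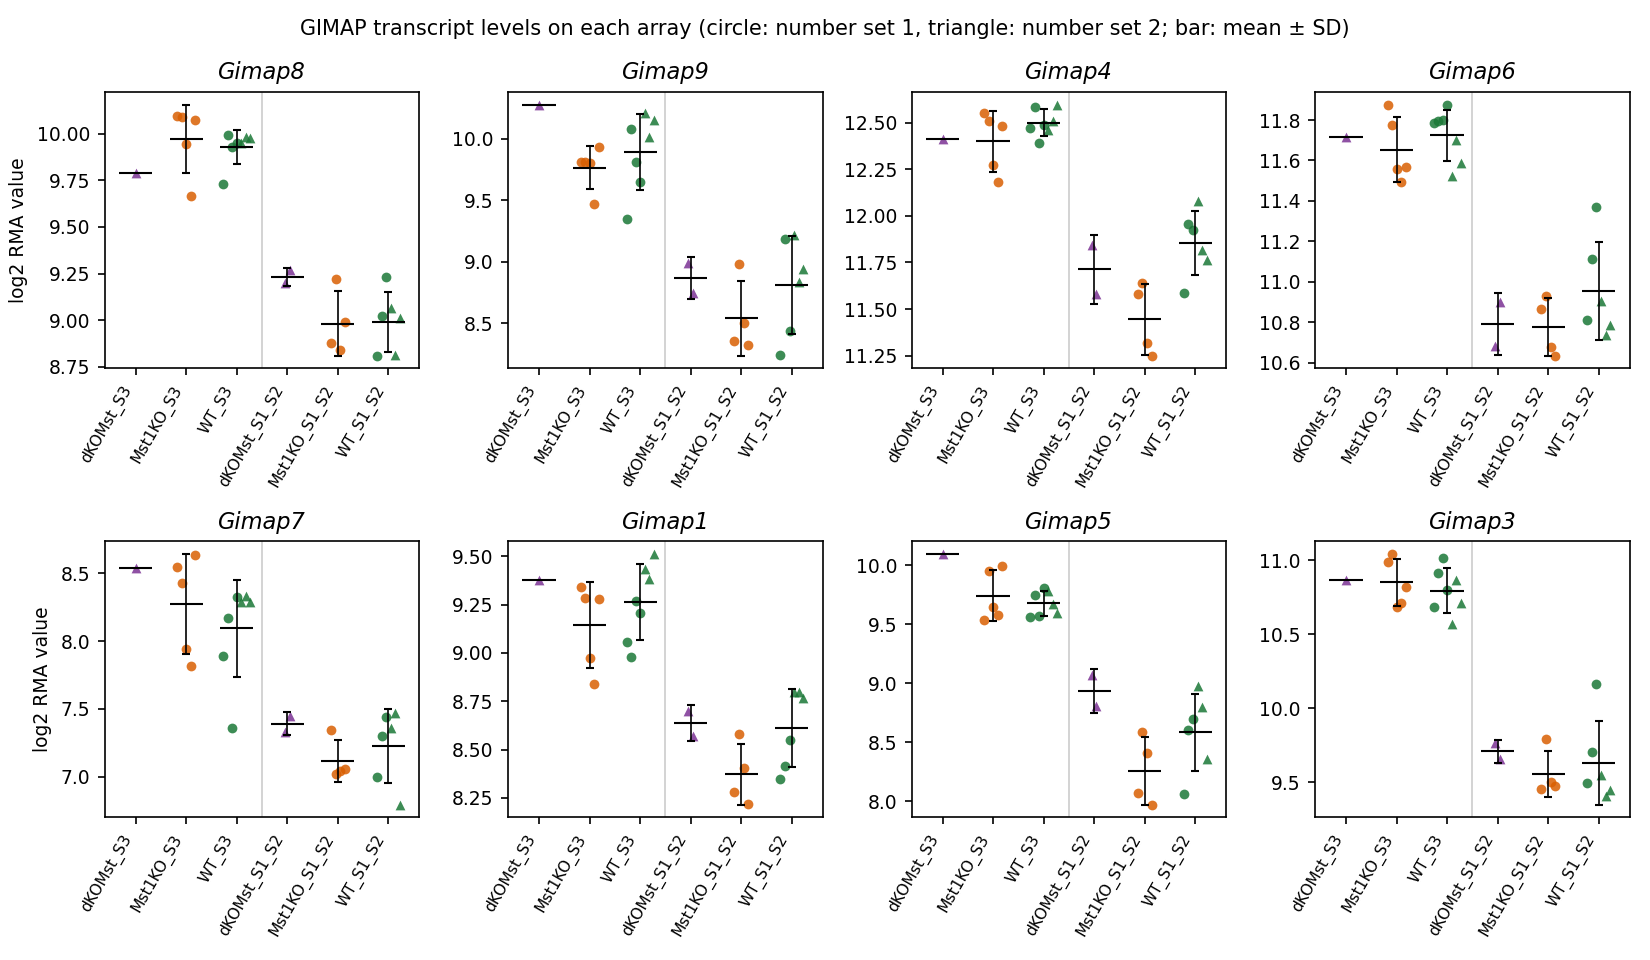
Log2 RMA value (y axis) of each GIMAP gene on every array, by group (x axis), genes in chromosomal order. Points are arrays (circles, number set 1; triangles, number set 2), lines and bars are the mean ± SD. In each panel the 3 S3 groups to the left of the grey line lie above the 3 S1_S2 groups, with the single low WT_S3 array of Gimap7 at 7.36 as the exception.

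Gimap5, Gimap3 and Gimap1 are the members tied most closely to lymphocyte survival. Gimap5, whose protein sits on lysosomal and endoplasmic reticulum membranes, read 9.54, 9.95, 9.64, 9.58 and 9.998 on the Mst1KO_S3 arrays, against 8.07, 8.59, 8.41 and 7.97 on the Mst1KO_S1_S2 arrays. In WT it had a lowest, median and highest value of 9.56, 9.67 and 9.81 at S3, against 8.06, 8.65 and 8.98 at S1_S2. No S3 array overlapped an S1_S2 array, and the rise was 1.48 ± 0.15 in Mst1KO (SE, limma, adjusted p = 2.9e-07), a 2.79-fold difference, and 1.1 ± 0.13 in WT (limma, adjusted p = 5.5e-07).

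Gimap3, a close relative of Gimap5 that acts with it in mouse T cell survival, read 10.99, 11.04, 10.68, 10.71 and 10.82 in Mst1KO_S3, against 9.46, 9.79, 9.5 and 9.48 in Mst1KO_S1_S2. In WT its lowest, median and highest values were 10.57, 10.80 and 11.01 at S3, against 9.41, 9.52 and 10.17 at S1_S2. The stages were apart in both genotypes, by 1.29 ± 0.12 in Mst1KO (SE, limma, adjusted p = 4.2e-08) and 1.15 ± 0.10 in WT (limma, adjusted p = 4.5e-09). WT_S1_S2 replicate 3, at 10.17, was the nearest to the S3 range. Whether the probes of Gimap3 and Gimap5 tell these related transcripts apart was not checked.

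Gimap1, needed for mature T and B cells to persist in mice, read 9.34, 9.29, 8.97, 8.84 and 9.28 in Mst1KO_S3, against 8.28, 8.58, 8.41 and 8.22 in Mst1KO_S1_S2. Its WT values ran from 8.98 over a median of 9.27 to 9.51 at S3, against 8.35, 8.66 and 8.80 at S1_S2. The stages did not overlap in either genotype, and the differences of 0.77 ± 0.10 in Mst1KO (SE, limma, adjusted p = 7.9e-06) and 0.68 ± 0.08 in WT (limma, adjusted p = 1.5e-06) were among the smaller ones of the family.

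Gimap4 and Gimap6 are members with roles in cell death and autophagy. Gimap4, which speeds the death of T cells once it has been triggered, read 12.55, 12.51, 12.27, 12.18 and 12.48 in Mst1KO_S3, against 11.58, 11.64, 11.32 and 11.25 in Mst1KO_S1_S2. Its lowest, median and highest WT values were 12.39, 12.49 and 12.60 at S3, against 11.59, 11.87 and 12.08 at S1_S2. The WT_S3 arrays of Gimap4 were close together and all lay above the WT_S1_S2 arrays. The rise was 0.95 ± 0.10 in Mst1KO (SE, limma, adjusted p = 8.0e-07) and 0.65 ± 0.09 in WT (limma, adjusted p = 5.3e-06).

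Gimap6, whose human protein binds the autophagy protein GABARAPL2, read 11.87, 11.78, 11.56, 11.50 and 11.57 in Mst1KO_S3, against 10.87, 10.93, 10.68 and 10.63 in Mst1KO_S1_S2. Its lowest, median and highest WT values were 11.52, 11.78 and 11.88 at S3, against 10.74, 10.86 and 11.37 at S1_S2. Stages were again apart, by 0.88 ± 0.10 in Mst1KO (SE, limma, adjusted p = 1.8e-06) and 0.75 ± 0.08 in WT (limma, adjusted p = 4.2e-07).

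Gimap7, Gimap8 and Gimap9 make up the rest of the family. Gimap7, whose human protein is an active GTPase that works as a dimer, read 8.54, 8.43, 7.94, 7.82 and 8.63 in Mst1KO_S3, against 7.34, 7.02, 7.04 and 7.06 in Mst1KO_S1_S2. Its lowest, median and highest WT values were 7.36, 8.29 and 8.33 at S3, against 6.79, 7.33 and 7.47 at S1_S2. WT_S3 replicate 3, at 7.36, lay inside the WT_S1_S2 range and the other 6 WT_S3 arrays lay above it. The rise was 1.16 ± 0.19 in Mst1KO (SE, limma, adjusted p = 0.00015) and 0.88 ± 0.16 in WT (limma, adjusted p = 0.00022). In the first title number set alone, which holds that array, the WT rise of Gimap7 was 0.69 and no longer called (limma, adjusted p = 0.066).

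Gimap8, the largest family member, with several GTP-binding domains, read 10.09, 10.09, 9.94, 9.67 and 10.07 in Mst1KO_S3, against 8.88, 9.22, 8.84 and 8.99 in Mst1KO_S1_S2. Its lowest, median and highest WT values were 9.73, 9.95 and 9.99 at S3, against 8.81, 9.02 and 9.23 at S1_S2. The stages were apart by 0.99 ± 0.10 in Mst1KO (SE, limma, adjusted p = 3.6e-07) and 0.94 ± 0.09 in WT (limma, adjusted p = 1.5e-08). Gimap9, one of the less studied members, read 9.81, 9.81, 9.81, 9.47 and 9.93 in Mst1KO_S3, against 8.36, 8.98, 8.50 and 8.32 in Mst1KO_S1_S2. Its lowest, median and highest WT values were 9.35, 10.01 and 10.21 at S3, against 8.24, 8.89 and 9.22 at S1_S2. Gimap9 had the widest spread in WT_S1_S2 (SD 0.40), yet its stages did not overlap, with rises of 1.22 ± 0.17 in Mst1KO (SE, limma, adjusted p = 2.0e-05) and 1.11 ± 0.14 in WT (limma, adjusted p = 2.3e-06).

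Counted over the family, the stages did not overlap for 8 of 8 members in Mst1KO, where 6.96% of all clusters were higher without overlap, and for 7 of 8 in WT, where 3.26% were. The rise was at least 2-fold for 4 members in Mst1KO and for 3 in WT. The measured sizes differed between genes: the 95% interval of the WT rise of Gimap3, 0.95 to 1.35, did not overlap that of Gimap4, 0.47 to 0.83. Each gene is read by its own probes, and whether these sizes compare as changes in transcript amount was not tested. The order of the 8 rises was similar in the genotypes (Pearson r = 0.87, Spearman rho = 0.83 across 8 genes, which are not independent replicates, from arrays not shared). All 8 rises were larger in Mst1KO. The test of this difference called 0 of 8 members in limma (0.158% of all clusters were called), with 1 at an unadjusted p under 0.05, Gimap4 at 0.30 ± 0.14 (SE, limma, adjusted p = 0.49).

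All 8 clustered GIMAP genes were called between stages, and 1 of their measured neighbours was. Of all clusters 5.58% were called higher and 4.62% lower in Mst1KO, and 8.18% and 8.75% in WT, so 1 neighbour called is near these shares. Of 18 listed neighbours 9 were measured, Atp6v0e2, Lrrc61, Rarres2, Gm5111, Repin1 and Zfp775 before the cluster and Tmem176b, Tmem176a and Aoc1 after it. The 1 called in each genotype was Rarres2, which codes for the chemoattractant chemerin, with a log2 difference of 0.54 ± 0.15 in Mst1KO (SE, limma, adjusted p = 0.025) and 0.57 ± 0.13 in WT (limma, adjusted p = 0.0022). The neighbours' median difference was -0.08 in Mst1KO and 0.01 in WT. The nearest measured genes on each side were not called: Zfp775 had a WT difference of -0.15 (limma, adjusted p = 0.18) and Tmem176b one of -0.21 (limma, adjusted p = 0.68). The plot along the locus shows the 8 members above 0 and most flanking intervals crossing it.

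**Figure D2:**
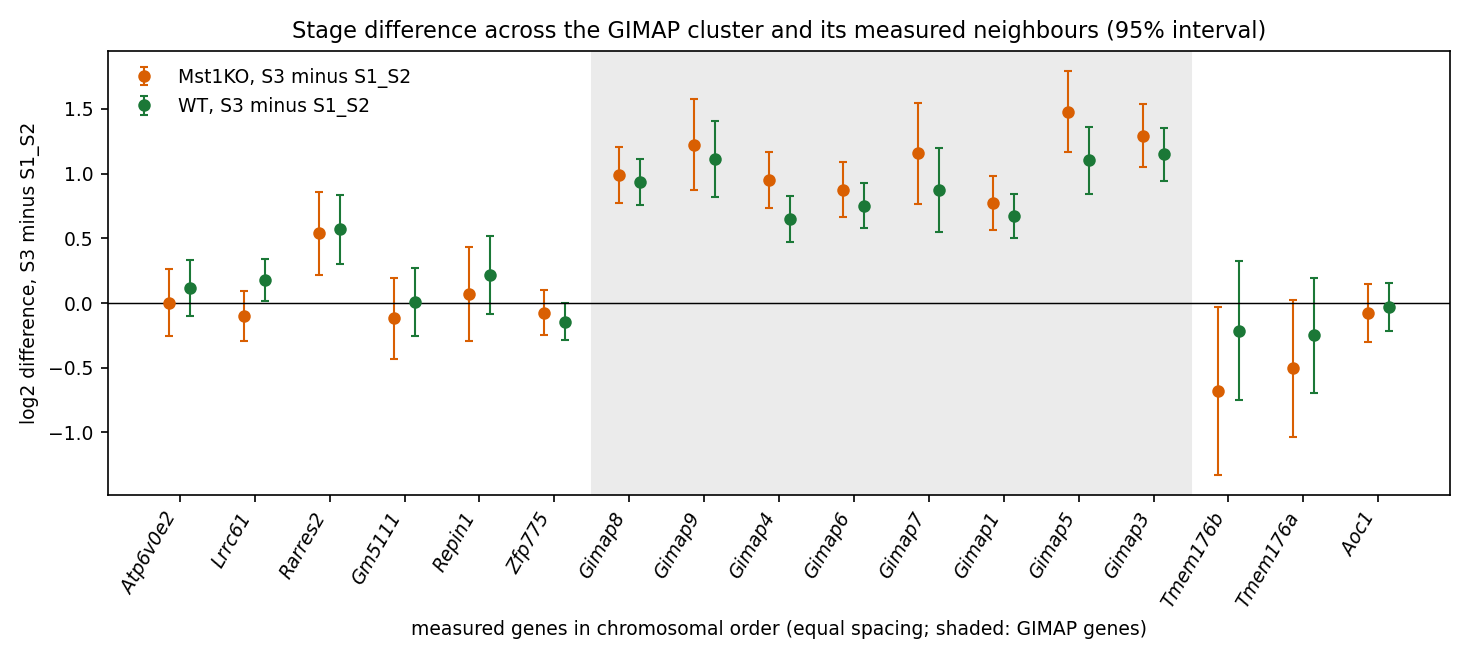
Log2 difference, S3 minus S1_S2 (y axis), of the measured genes in chromosomal order at equal spacing (x axis), in Mst1KO (orange) and WT (green). Points are limma estimates and bars their 95% intervals. Within the shaded GIMAP cluster differences run from 0.65 to 1.48, and Rarres2 is the only neighbour called.

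Loss of Mst1 called 0 of 8 members at either stage. At S3 the Mst1KO minus WT differences ran from -0.18 (Gimap6) to 0.26 (Gimap7), with a median of 0.03 against -0.05 for all clusters. In limma 0 members were called, 0 had an unadjusted p under 0.05, and 6.37% of all clusters were called. The 95% intervals spanned -0.37 to 0.62 over the members, and changes within these bounds could not be resolved for every member. The widest interval was that of Gimap7, -0.11 to 0.62, and 3 of its 5 Mst1KO_S3 arrays lay above all 7 WT_S3 arrays. With only the arrays that have Y-linked signal, which 2 of the 5 Mst1KO_S3 arrays lack, the median was 0.14, 7 of 8 members lay above 0, and Gimap7 differed by 0.52 (limma, adjusted p = 0.14). Of 7 measured CD8 and double-positive thymocyte markers, 2 were called higher in Mst1KO_S3 than in WT_S3, Cd8b1 at 0.73 and Cd24a at 0.52, and 5 were not called, with differences of -0.24 to 0.87 over the list. The list median was 0.49, and 5 of the 7 had an unadjusted p under 0.05 in limma, as had 5244 of all 22206 clusters. Cd163l1 was the 1 of 3 gamma-delta markers called, at 0.82. Array means of the CD8 and double-positive list were 7.14 to 7.44 in Mst1KO_S3 and 6.54 to 7.06 in WT_S3, with 5 of 7 measured markers above the controls in both and Cd24a below. Their part in the GIMAP values was not tested.

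At S1_S2 the differences lay below 0 for all 8 members, from -0.38 (Gimap4) to -0.00 (Gimap8), with a median of -0.13 against -0.01 for all clusters. In limma 0 of 8 were called (0.522% of all clusters were called) and 2 had an unadjusted p under 0.05. These were Gimap4, at -0.38 ± 0.11 (SE, limma, adjusted p = 0.15), and Gimap6, at -0.30 ± 0.11 (limma, adjusted p = 0.32). For Gimap4, 3 of the 4 Mst1KO_S1_S2 arrays (11.58, 11.32 and 11.25) lay below every WT_S1_S2 array, of which the lowest was 11.59. With the arrays that lack Y-linked signal left out, Gimap4 differed by -0.22 (limma, adjusted p = 0.84) and Gimap6 by -0.18 (limma, adjusted p = 0.92), and 5 of 8 members were below 0. With a term for that signal in its place the differences were -0.23 and -0.19, and 4 of 8 were below 0. Of the gamma-delta markers Cd163l1 was called at 0.77 and Sox13 at -0.67, and their part was not tested. Before the set was taken into account, Mst1KO had the lowest S1_S2 group mean for all 8 members and dKOMst the highest for 6.

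**Figure D3:**
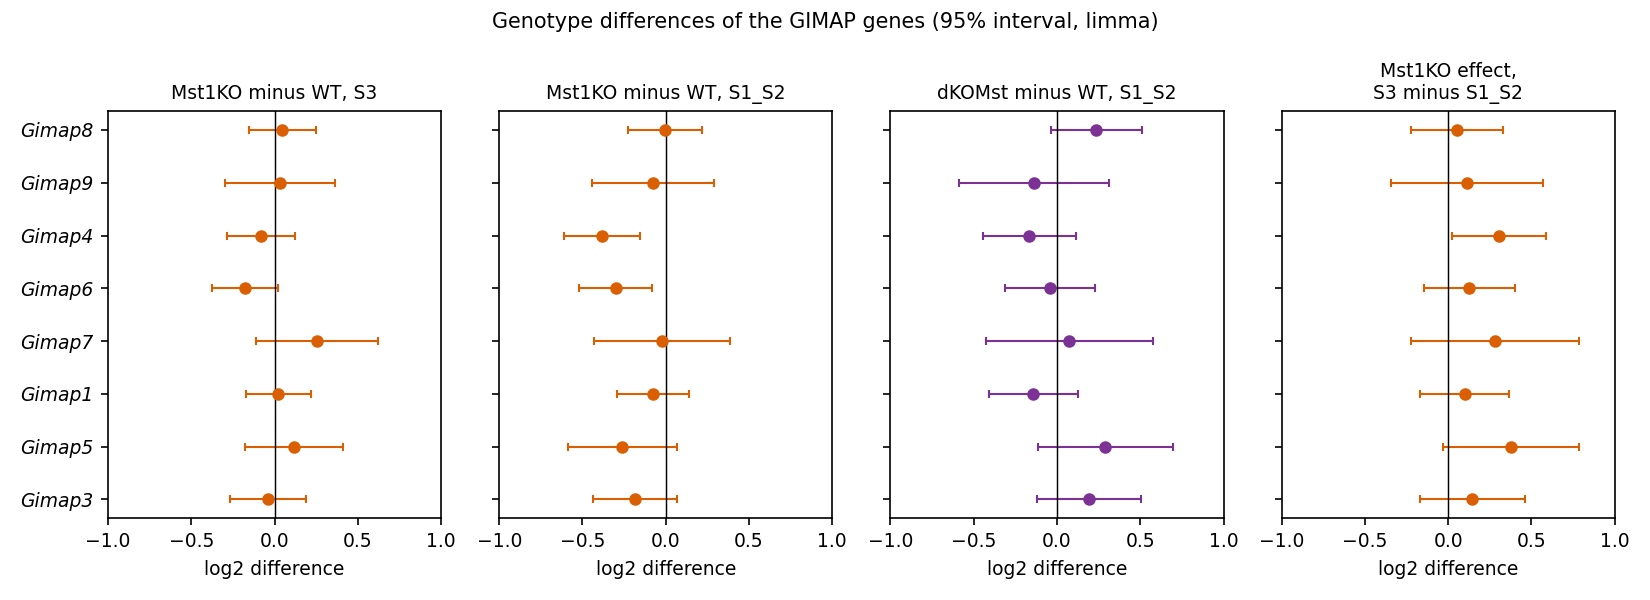
Log2 difference (x axis) of each GIMAP gene (y axis, chromosomal order) for Mst1KO minus WT at S3 and at S1_S2, dKOMst minus WT at S1_S2, and the Mst1KO effect at S3 minus that at S1_S2. Points are limma estimates and bars 95% intervals. No difference was called, and the largest in size among the 3 genotype panels is -0.38 (Gimap4).

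Combined loss of Mst1 and Mst2 was measured at S1_S2 on 2 arrays, which limits the precision. Gimap5 read 9.07 and 8.81 in dKOMst_S1_S2, against 8.98, 8.80 and 8.36 on the WT_S1_S2 arrays of the same set. Gimap8 read 9.20 and 9.27 in dKOMst_S1_S2, against 9.06, 8.81 and 9.01 on those WT arrays. Both dKOMst arrays were above the WT arrays of their set for Gimap8, and for Gimap5 the groups overlapped. WT_S1_S2 replicate 3, of the first set, read 9.23 for Gimap8, between the dKOMst arrays. The share of all clusters placed in this way was not counted, so the position is no result about Gimap8. The fitted differences of the 8 members ran from -0.17 (Gimap4) to 0.29 (Gimap5), 4 above and 4 below 0, with a median of 0.02 against 0.01 for all clusters. In limma 0 members were called (0.923% of all clusters were called), 0 had an unadjusted p under 0.05, and the 95% intervals spanned -0.59 to 0.69. Klrb1c, the NK1.1 gene that the gate excludes, was lower in these cells, at 8.33 ± 0.07 in dKOMst_S1_S2 and 9.32 ± 0.65 in WT_S1_S2 (SD, n = 2 and 6), a difference of -1.18 ± 0.25 (SE, limma, adjusted p = 0.020). Of 9 myeloid and dendritic cell markers 2 were called higher and 0 lower in dKOMst_S1_S2, Itgam at 0.93 and Lyz2 at 0.70, with a list median of 0.24. The part of these genes in the GIMAP values was not tested.

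Set against Mst1KO_S1_S2, dKOMst_S1_S2 was higher for 6 members and lower for 2, with differences of -0.07 to 0.55. In limma 0 of 8 were called (0.171% of all clusters were called) and 2 had an unadjusted p under 0.05. Gimap5 differed by 0.55 ± 0.23 (SE, limma, adjusted p = 0.50), with 9.07 and 8.81 in dKOMst above all 4 Mst1KO arrays, of which the highest was 8.59. These array values are not adjusted for the set, and WT_S1_S2 itself averaged 8.71 for Gimap5 in the second set and 8.46 in the first. The share of all clusters separated in this way was not counted, so the separation is no result about Gimap5. Gimap3 differed by 0.37 ± 0.18 (limma, adjusted p = 0.58). The 2 genotypes lie in different title number sets, so the fitted differences rest on the set difference estimated from WT arrays.

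The single dKOMst_S3 array has no replicate check and was compared by its values. It read above the mean of the dKOMst_S1_S2 arrays by 0.56 (Gimap8) to 1.41 (Gimap9), with a median of 1.04. Against the 3 WT_S3 arrays of its set it was above all 3 for Gimap3, Gimap5, Gimap6, Gimap7 and Gimap9, and below all 3 for Gimap1, Gimap4 and Gimap8. The share of all clusters outside those arrays was not counted, so these positions are no result about the members. The differences from those arrays' mean ran from -0.18 (Gimap8) to 0.41 (Gimap5). Gimap5 read 10.10 on the dKOMst_S3 array, against 9.60 to 9.78 on the WT_S3 arrays.

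GIMAP levels were also correlated with each other among arrays of the same group. Across all 25 arrays each member correlated with the mean of the others at r = 0.90 (Gimap7) to 0.96 (Gimap8), which holds the stage difference. With group means and set removed, r was 0.83 for Gimap4, 0.78 for Gimap8 and 0.44 for Gimap7, and all 28 pairs of members stayed above 0 (median r = 0.54, range 0.17 to 0.78). The points share libraries and normalization, and the correlations of other pairs of clusters were not set beside them, so these are descriptions.

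Mst1KO replicates 3 and 4 at each stage lacked Y-linked signal. Over 3 Y-linked genes their mean was 4.74 to 4.84, against 7.05 to 8.02 on the other 21 arrays. At S3, 7 of 8 members were lower on both arrays without it than on all 3 with it, as were 9.1% of all clusters. Gimap7 averaged 7.88 on the arrays without and 8.54 on those with Y-linked signal, the widest gap at -0.66, and Gimap5 was the exception, since replicate 1, which has the signal, read 9.54. At S1_S2, 2 of 8 members, Gimap4 and Gimap6, were lower on both arrays without it than on both with it, as were 15.9% of all clusters. With only the arrays that have Y-linked signal, 0 members were called between Mst1KO and WT in limma at either stage, and the S3 minus S1_S2 rises in Mst1KO were called for 8 of 8 (0.84 to 1.5). Its part in the spread of the Mst1KO arrays was not tested.

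**Figure D4:**
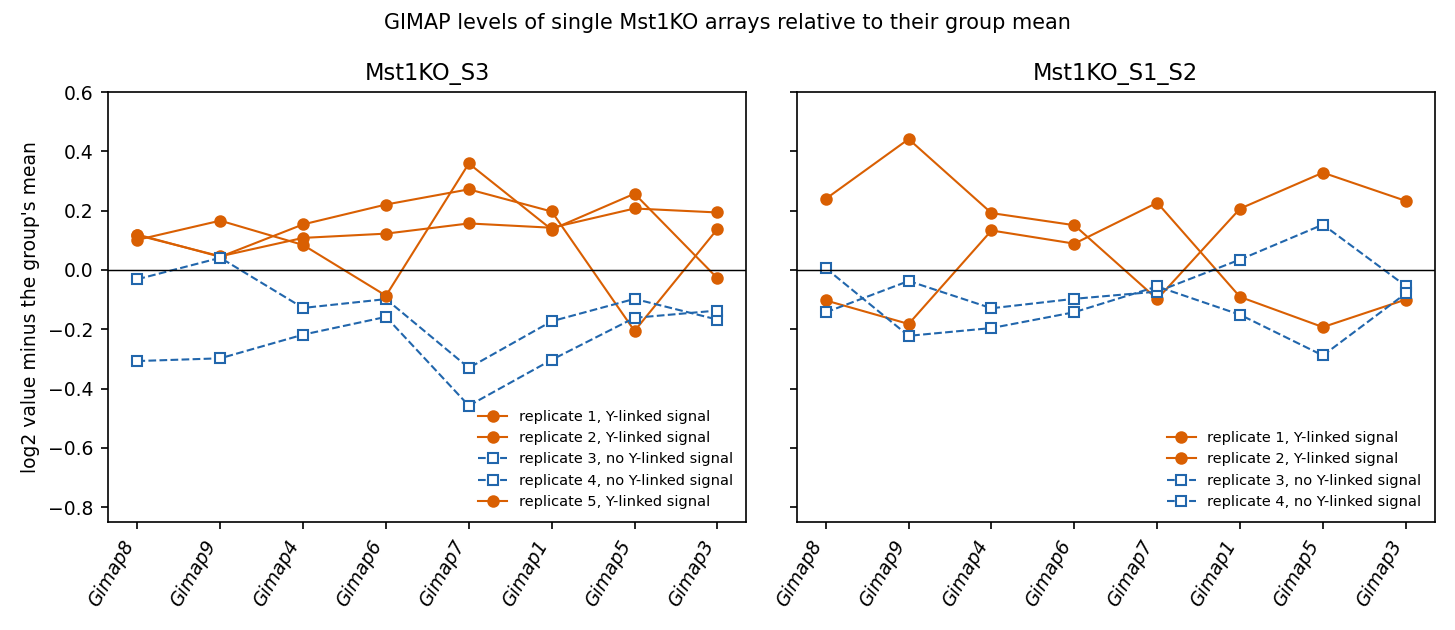
Log2 value minus the group's mean (y axis) for each GIMAP gene (x axis, chromosomal order) on every Mst1KO array, at S3 and at S1_S2. Lines join the genes of 1 array, filled circles have Y-linked signal and open squares do not. At S3 the arrays without it lie lowest for 7 of 8 genes, with a gap of -0.66 for Gimap7.

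The genes whose 25 array values were most like the mean GIMAP profile were Peak1 (r = 0.98), a pseudokinase scaffold gene, Ctsw (0.97), a cathepsin of cytotoxic lymphocytes, Nkg7 (0.97), a cytotoxic granule protein gene, Crim1 (0.96) and B4galnt1 (0.96), a ganglioside synthase gene. Likeness over these arrays is mostly likeness in the stage difference, so that higher levels at S3 follow from the choice and were not tested. Nkg7 averaged 11.73 in Mst1KO_S3 and 9.49 in Mst1KO_S1_S2, a difference of 2.24, and Ctsw differed by 0.79 in Mst1KO, within the GIMAP range. With group means and set removed the most similar were Ugp2 (0.80), AF067063 (0.76), Tbx21 (0.75), Elp2 (0.74) and Lsp1 (0.74). Tbx21 codes for T-bet, the factor that drives the NK1.1-positive stage, and it rose by 1.91 ± 0.14 between the WT stages (SE, limma, adjusted p = 2.7e-10). AF067063 averaged 4.37 in WT_S3 and 4.47 in WT_S1_S2, below the negative controls. This second list was also picked as the highest r among all named genes, so high values follow from the choice. A link of any of these genes, Tbx21 included, with the GIMAP genes was not tested.

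Among BCL2 family and mitochondrial death genes, to which GIMAP proteins have been linked, 4 of 11 measured were called higher and 0 lower at S3 in Mst1KO, and 5 and 0 in WT. Of all clusters 5.58% were called higher in Mst1KO and 8.18% in WT. The antiapoptotic gene Bcl2 rose by 1.71 ± 0.14 in Mst1KO (SE, limma, adjusted p = 1.1e-08) and by 1.34 ± 0.12 in WT (limma, adjusted p = 9.3e-09), and its relative Bcl2l1 by 1.1 in Mst1KO and 1.05 in WT. The proapoptotic gene Bcl2l11 (Bim) was also higher at S3, by 0.53 in Mst1KO and 1.20 in WT. Between genotypes at S3 it averaged 8.48 ± 0.21 in Mst1KO and 9.20 ± 0.25 in WT (SD, n = 5 and 7), a difference of -0.89 ± 0.12 (SE, limma, adjusted p = 0.00013). Bcl2l11 was the 1 of 11 called there, which is near the share of 6.37% of all clusters. At S1_S2, 0 of 11 were called between Mst1KO and WT in limma (0.522% of all clusters were called), with 1 at an unadjusted p under 0.05.

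Of 12 autophagy and ATG8 family genes, 4 were called higher and 0 lower at S3 in Mst1KO, and 5 and 0 in WT, while 5.58% and 8.18% of all clusters were called higher. Gabarapl1, an ATG8 protein of autophagosomes, rose by 0.63 ± 0.16 in Mst1KO (SE, limma, adjusted p = 0.011) and 1.08 ± 0.13 in WT (limma, adjusted p = 1.7e-06). Gabarapl2, which codes for the partner of human GIMAP6, rose by 0.30 in Mst1KO (limma, adjusted p = 0.019) and 0.20 in WT (limma, adjusted p = 0.038). Between Mst1KO and WT 0 of 12 were called in limma at either stage, with 4 at S3 and 0 at S1_S2 at an unadjusted p under 0.05. Between these genotypes 6.37% of all clusters were called at S3 and 0.522% at S1_S2. Of 9 interferon-inducible GTPases, another group of GTPases, 4 were called higher in Mst1KO and 6 in WT, with 0 lower. Gbp3 led, at 1.00 in Mst1KO (limma, adjusted p = 2.4e-05) and 0.83 in WT (limma, adjusted p = 1.0e-05), and 0 of 9 were called between Mst1KO and WT in limma at either stage, with 0 at S3 and 2 at S1_S2 at an unadjusted p under 0.05.

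Genes of naive-type T cells, quiescence and egress, which in conventional T cells are expressed alongside the GIMAP genes, split instead of moving together. Of 18 measured, 5 were called higher and 5 lower at S3 in Mst1KO, and 9 and 5 in WT. Of all clusters 5.58% were called higher and 4.62% lower in Mst1KO, and 8.18% and 8.75% in WT. The list ran from -0.95 to 0.74 in Mst1KO, with a median of 0.02, and from -1.77 to 1.09 in WT, with a median of 0.37. The stage genes named next, S1pr1 and Lef1, are both lower ones. S1pr1, the receptor for thymic exit, differed by -0.95 in Mst1KO (limma, adjusted p = 1.7e-05) and -1.77 in WT (limma, adjusted p = 1.6e-11). Lef1, a transcription factor of early T cells, differed by -0.78 in Mst1KO (limma, adjusted p = 2.2e-06) and -0.97 in WT (limma, adjusted p = 1.4e-09). Between genotypes at S3, S1pr1 was higher in Mst1KO by 1.13 ± 0.12 (SE, limma, adjusted p = 8.3e-06), Klf2 by 0.66 and Klf6 by 0.50, and Satb1 was lower by a log2 difference of -0.35. At S1_S2 Klf6 was the 1 list member called in Mst1KO, at 1.16 ± 0.14 (SE, limma, adjusted p = 0.0001), while no GIMAP gene was called in either comparison. At S1_S2, 9 of the 18 had an unadjusted p under 0.05 in limma, with a list median of 0.20, against 1921 of all 22206 clusters. At S3, 7 of the 18 did, with a list median of -0.05, against 5244 of all 22206 clusters.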

How the data were processed

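Per the submitters' processing notes, the authors used RMA and Affymetrix Expression Console 1.1, and the deposited log2 values were taken without renormalization. Per the labels' protocols, NuGEN chemistry amplified and biotinylated the RNA. For genome build and other versions, none was given in the sources used here. Coordinates are those of the RefSeq promoters. Of 28846 items 6640 controls were left out. Linear models (limma 3.58.1, R 4.3.3) had a mean for each of 6 groups and a term for the title number set, inferred from the titles, with 18 residual degrees of freedom. Benjamini-Hochberg adjustment ran over all 22206 clusters of a comparison, and adjusted p under 0.05 was called with no minimum fold. Intervals are 95%. The model was tested on simulated data. The number of arrays limits the precision. Members and lists were chosen with earlier results of these data known. Named genes are the members, Stk4, the sort markers, measured locus neighbours, the 5 most similar genes before and after group and set were removed, and, per list, at most 3 called genes, taken by size of change, or else the 1 of smallest p. Gabarapl2 was named outside that rule after its values were seen. Alternatives changed the set term, the arrays used, the normalization, the variance model, a term for Y-linked signal, a block of arrays matched by title number (added after seeing the data) and the minimum fold, and left out each array.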

Additional observations from a re-analysis of the deposited data

Results flagged for a closer look

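In 32 tests for a single array lying apart from its group, 4 member values stood out, and chance alone gives such a value in about 1 of 20 groups. Gimap3 was highest on Mst1KO_S1_S2 replicate 2, at 9.79, with the other 3 arrays between 9.46 and 9.5. Gimap7 was highest on Mst1KO_S1_S2 replicate 1, at 7.34, with the others between 7.02 and 7.06. Gimap8 was lowest on WT_S3 replicate 1, at 9.73, with the others between 9.93 and 9.99. Gimap9 was lowest on Mst1KO_S3 replicate 4, at 9.47, with the others between 9.81 and 9.93, and this array also lacked Y-linked signal.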

How the results depend on the processing

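The labels give no replicate numbers that groups share, but title numbers run in parallel across stages, 16 apart in the first set and 6 in the second, and this was examined after seeing the data. For 10 such pairs of arrays the deviations from the group means correlated at 0.06 to 0.17, above 0.1 in 4, and in 9 each array correlated best with its match, a hint from the data and not the design. With all 11 matched pairs, the single dKOMst pair included, as a fixed or random replicate block 8 of 8 members were called between stages in each genotype and 0 of 8 in the difference of the Mst1KO effects, which called 9 clusters with the fixed and 53 with the random block. The rises of the 8 members between stages kept their direction under every alternative tried. Requiring a change beyond 1.5-fold left 4 members called in Mst1KO and 4 in WT, Gimap3, Gimap5, Gimap8 and Gimap9 in both, because that alternative asks for a larger change. With any 1 array left out 8 of 8 were called, at a highest adjusted p of 0.00098 in Mst1KO and 0.00097 in WT. Between genotypes 0 of 976 member values under alternatives were called in limma, the lowest adjusted p being 0.062 for Gimap4 at -0.41 in Mst1KO_S1_S2 minus WT_S1_S2 without the set term. The WT rise of Gimap7 was 0.69 and not called in the first set alone. Over all clusters the counts moved more, mostly with the 1.5-fold minimum, fewer arrays or the set term. The Mst1KO stage comparison called 2266 clusters and between 232 and 3107 under alternatives, and the WT stage comparison 3760 and between 493 and 4011. Mst1KO_S3 minus WT_S3 called 1415 and between 13 and 1633, with 783 without Mst1KO_S3 replicate 5 and 871 without replicate 2. Mst1KO_S1_S2 minus WT_S1_S2 called 116 and between 3 and 151, with 66 to 77 without any 1 Mst1KO_S1_S2 array or WT_S1_S2 replicate 1 or 2. The difference of the Mst1KO effects called 35 and between 0 and 55, and with 1 array left out between 14 (Mst1KO_S1_S2 replicate 2) and 61 (WT_S1_S2 replicate 3), with counts of 15 to 23 without WT_S1_S2 replicate 2 or 5, WT_S3 replicate 1, Mst1KO_S1_S2 replicate 1, 3 or 4, or Mst1KO_S3 replicate 2, 3, 4 or 5. For dKOMst_S1_S2 the counts were 205 against WT (15 to 343, 33 without dKOMst replicate 1 and 107 without replicate 2) and 38 against Mst1KO (2 to 195, and 4 without replicate 1).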
